A study of Mus musculus with 8 samples.

Results

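Mitosis and cytokinesis genes are the genes whose products condense, align, separate and finally enclose the chromosomes of a dividing cell. A fixed list of 43 such genes was followed here in pancreatic stellate cells (PSCs), fibroblast-like cells that reside in the pancreas, and all 43 were found by symbol among the 12160 genes of the deposited count table. The PSCs were 1 immortalized mouse line, so every dome holds cells of the same line. All domes were seeded in growth factor reduced Matrigel with 20000 cells per the sample records, a number that differs from the one in the study's methods. They were held in growth medium for 4 days, and then held for another 4 days in 1 of 3 media. Of these, 3 domes received medium conditioned by KPC-shBrca2 organoids (shBrca2-CM) and 3 received medium conditioned by KPC-shControl organoids (shControl-CM). KPC organoids are 3D cultures of mouse pancreatic tumour cells, in which a lentiviral hairpin silenced *Brca2* or was the non-targeting control. The other 2 domes were the control, which the sample titles and the study's results name growth medium (DMEM) and which the recorded treatment and the study's methods name the PSCs' own conditioned medium. The control is called growth medium here. Organoid medium was collected in DMEM of lower serum content than growth medium, so the organoids' secreted products and the serum cannot be told apart in a comparison with that group.

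Mitotic genes are known as a wave of transcription late in the cell cycle. Cdk1 with cyclins A and B drives entry into mitosis, Aurora and Polo kinases build the spindle, the checkpoint holds the anaphase promoting complex until all kinetochores are attached, and that complex then marks cyclin B and securin for destruction. Most of these genes are silenced in resting cells by the DREAM complex and switched on later by B-Myb with the MuvB core and by FOXM1, through a promoter element called the CHR and through CCAAT boxes bound by NF-Y. In the pancreas, stellate cells rest in healthy tissue and enter the cell cycle when they are activated.

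Because the members share this mode of control, their promoters were examined first. RefSeq promoter windows on GRCm38.p6, which is the mm10 build of the deposited counts, run from 250 bases before to 50 bases after each transcription start and matched 37 of the 43 members with 39 windows. A CHR core, spelled TTTGAA or TTCGAA and searched on both strands, was found in 30 of the 39 windows (76.9%), against 19.2% of all 32851 windows. CCAAT, also searched on both strands, was found in 29 (74.4%), against 37.4% of all windows. Both motifs were found in 27 (69.2%), against 7.52% of all windows, and in 1 of the 27 a match of one overlapped a match of the other. These shares are a description; *Prc1* and *Ect2* each count with 2 overlapping windows, and a match is not a site of binding. Among members with a window, the CHR core was found in 7 of 10 called higher, 5 of 5 called lower and 16 of 22 not called with shControl-CM against growth medium, and in 3 of 5, 9 of 10 and 16 of 22 with shBrca2-CM. CCAAT was found in 8 of 10, 5 of 5 and 14 of 22, and in 4 of 5, 10 of 10 and 13 of 22.

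The stretches shown are the 110 bases before the start for 5 members on which the results turn, with both motifs in capitals on whichever strand they lie (ATTGG is CCAAT and TTCAAA is TTTGAA read from the other strand). *Prc1* and *Cdca8* differed between the conditioned media, *Cdc20* and *Ube2c* were lower with shBrca2-CM than in growth medium, and *Top2a* was higher. *Prc1* lies on the plus strand at chr7:80294366-80294475, *Cdca8* on the minus strand at chr4:124936918-124937027, *Cdc20* on the minus strand at chr4:118437344-118437453, *Ube2c* on the plus strand at chr2:164769819-164769928 and *Top2a* on the minus strand at chr11:99024190-99024299.
Prc1: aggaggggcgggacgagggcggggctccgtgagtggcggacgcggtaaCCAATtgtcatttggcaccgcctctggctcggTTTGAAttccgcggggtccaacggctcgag
Cdca8: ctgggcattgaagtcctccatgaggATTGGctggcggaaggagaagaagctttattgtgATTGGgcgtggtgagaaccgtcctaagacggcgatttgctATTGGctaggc
Cdc20: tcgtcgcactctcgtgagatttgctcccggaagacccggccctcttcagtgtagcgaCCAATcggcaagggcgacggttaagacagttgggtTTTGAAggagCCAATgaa
Ube2c: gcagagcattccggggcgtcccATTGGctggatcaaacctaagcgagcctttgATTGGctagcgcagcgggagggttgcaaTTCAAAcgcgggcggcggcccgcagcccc
Top2a: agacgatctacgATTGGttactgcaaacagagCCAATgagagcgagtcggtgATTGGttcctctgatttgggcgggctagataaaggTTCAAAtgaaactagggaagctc
In *Prc1*, *Cdc20*, *Ube2c* and *Top2a* a CCAAT box lies 27, 30, 23 and 30 bases upstream of the CHR core. In *Cdca8* the CHR core of the window lies after the start, outside the printed stretch.

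Libraries of the 3′ ends of mRNA held 655996 to 1095534 counts on genes in the shBrca2-CM group, 1093609 to 1624392 in the shControl-CM group, and 4623846 and 5476988 in the control. Expression is given as CPM, counts scaled to a common library size and normalized by edgeR's TMM method over the 8 libraries, and a floor of 3 counts stands for 4.34 CPM at the lowest depth and 0.521 CPM at the highest. Such floors cover counting error only. The cells carried stellate cell transcripts in every library: all 14 listed markers were in the table, and their summed expression was 4104 to 4643 CPM with shBrca2-CM, 4988 to 5915 CPM with shControl-CM, and for the control domes 7240 and 8828 CPM. The markers went both ways, with 4 called higher and 6 lower than growth medium with shControl-CM, where 18.2% and 18.9% of all genes were. With shBrca2-CM 6 were called higher and 6 lower, where 18.6% and 19.2% of all genes were. *Vim* was the largest part of the sum in the control, with 3396 and 4115 CPM there and 243 to 749 CPM in the conditioned medium libraries. Between the conditioned media 1 of the 14 was called higher with shBrca2-CM (*Pdgfra*) and 3 lower (*Dcn*, *Pdpn* and *Lum*), where 3.13% of all genes were called. *Dcn*, a matrix proteoglycan gene, was at 910 to 2257 CPM in the 6 conditioned medium libraries and 105 and 80.0 CPM in the control, whereas *Col1a2* was at 118 to 292 CPM in the 6 conditioned medium libraries and 864 and 929 CPM in the control, and *Acta2*, which marks the myofibroblastic state, had 1 to 3 counts in each conditioned medium library and 170 and 107 in growth medium. Of the 12 epithelial markers listed 3 were in the table (*Krt18*, *Krt19* and *Muc1*), at a summed 59.3 to 94.1, 57.7 to 70.6, and 41.7 and 37.0 CPM in the same order. *Krt18* and *Muc1* were called higher than growth medium with both media and *Krt19* lower, and *Krt19* was called higher with shBrca2-CM than with shControl-CM (5.79 to 16.2 against 2.04 to 3.87 CPM, and 24.3 and 25.4 CPM in the control). Of the 9 immune markers 4 were in the table, at 13.0 to 29.3, 24.4 to 40.1, and 12.2 and 10.8 CPM, and of the 5 endothelial markers 2, at 0 to 3.48 CPM over the 8 libraries. These levels moved with the groups, and their part in the results was not tested. None of the other markers, such as *Epcam*, *Cdh1* or *Ptprc*, was analysed here.

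The sum over all members was lower with shBrca2-CM than with the other media on the TMM scale. Their summed expression was 3841, 3515 and 3264 CPM in the 3 shBrca2-CM domes, 4295, 4461 and 4385 CPM in the 3 shControl-CM domes, and 4424 and 4434 CPM in growth medium. On this scale no shBrca2-CM dome reached the range of either other group, and shControl-CM and growth medium differed by less than the range among shControl-CM domes. As a share of all counts the members made up 0.405, 0.365 and 0.336% with shBrca2-CM, 0.421, 0.422 and 0.397% with shControl-CM, and 0.465 and 0.446% in growth medium, so that without TMM the conditioned media overlapped and both lay below growth medium. As means these are 3540 ± 289 CPM (SD, n = 3), 4380 ± 83.1 CPM (SD, n = 3) and 4429 CPM (n = 2). In bulk RNA, fewer dividing cells and less of these transcripts per dividing cell cannot be told apart. Within shBrca2-CM the sum was lower in the deeper libraries, in the order of their totals. After all libraries were thinned to the same total, the ratio of the shBrca2-CM mean to the shControl-CM mean went from 0.808 to 0.849, and scaling by total counts gave 0.891, with 0.908 for shControl-CM over growth medium where TMM gave 0.989.

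**Figure D1:**
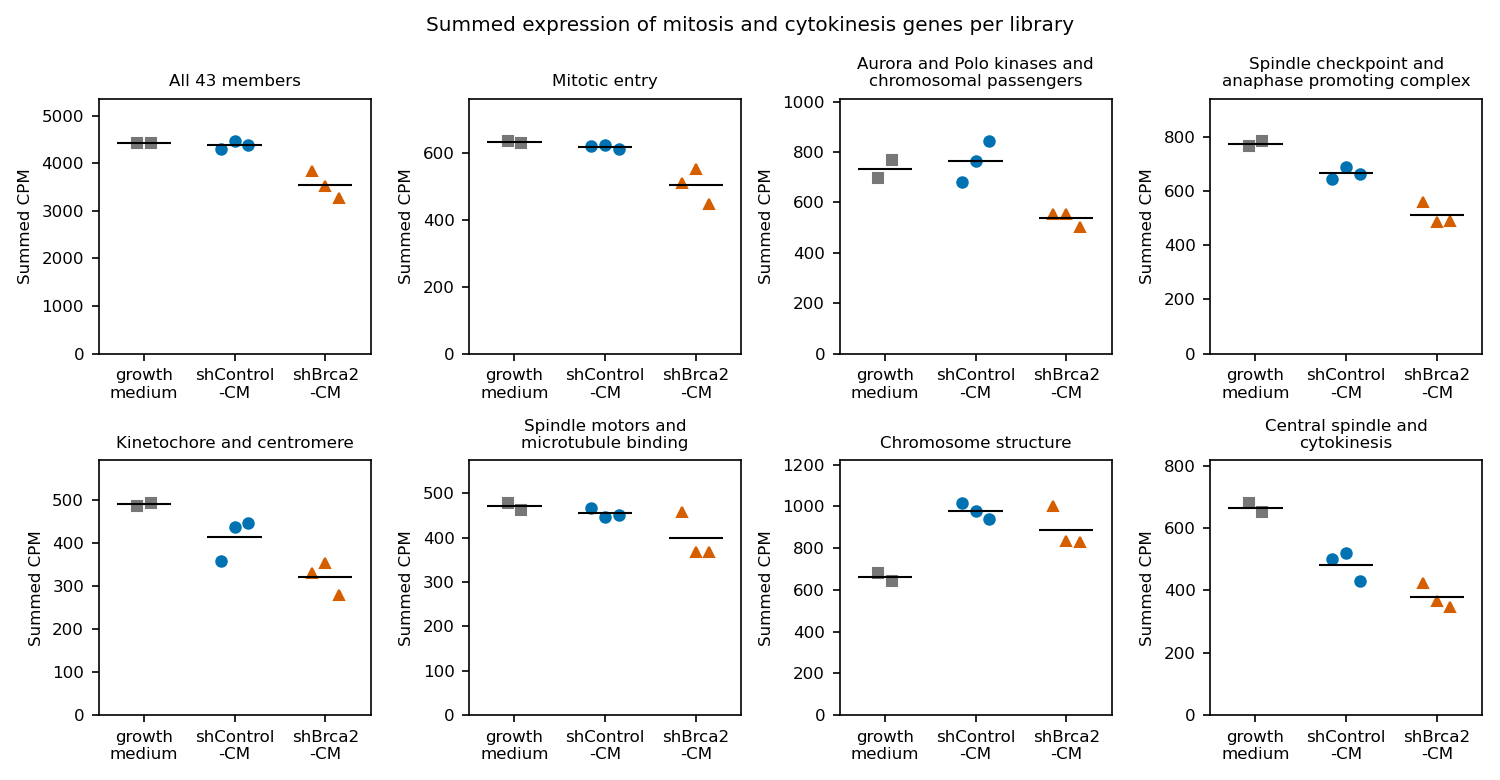
Summed CPM of all 43 mitosis and cytokinesis genes and of each of their 7 roles (y axis, from 0) by medium (x axis), with 1 point per library and a line at the group mean. All 3 shBrca2-CM libraries lie between 3264 and 3841 CPM in the first panel, below the other 5 on the TMM scale, while chromosome structure genes lie higher in both conditioned media than in growth medium.

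The roles did not move together. Chromosome structure genes summed to 941 to 1017 CPM with shControl-CM and 830 to 1001 CPM with shBrca2-CM, both above the 680 and 643 CPM of growth medium. Central spindle and cytokinesis genes were highest in growth medium, with 682 and 651 CPM there, 429 to 519 CPM with shControl-CM and 348 to 425 CPM with shBrca2-CM. Checkpoint and anaphase promoting complex genes were at 764 and 782 CPM in growth medium, 644 to 689 CPM with shControl-CM and 485 to 560 CPM with shBrca2-CM, with no overlap between the 3 groups. Mitotic entry genes were at 612 to 624 CPM with shControl-CM and at 631 and 635 CPM in growth medium, and at 447 to 554 CPM with shBrca2-CM.

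To ask which members differ from growth medium, each conditioned medium was compared with it by edgeR's quasi-likelihood test over all genes, and a gene was called when its Benjamini-Hochberg adjusted p was below 0.1, its log2 fold change exceeded 0.5 in either direction and its mean normalized count was above 5. Both comparisons use the same 2 growth medium libraries, whose deviations enter both. With shControl-CM, 18 of the 43 members were called (41.9%), where 37.1% of the 12086 genes tested were called. Of the 18, 11 were higher (25.6% of members, against 18.2% of all genes) and 7 lower (16.3%, against 18.9%). The median log2 fold change was 0.10 over the members and -0.10 over all genes, and scaled by total counts they were -0.02 and -0.21. With shBrca2-CM, 18 members were also called (41.9%, against 37.8% of 12049 genes), 6 higher (14.0%, against 18.6%) and 12 lower (27.9%, against 19.2%), and the median was -0.16 over the members and -0.05 over all genes. That member median lay between -0.27 and -0.06 when single libraries were left out, and was 0.0028 in thinned libraries. At an unadjusted p-value under 0.05 were 22 members with shControl-CM (51.2%, against 44.0% of all genes) and 23 with shBrca2-CM (53.5%, against 46.9%). All shControl-CM values lay above growth medium in 15 members (34.9%, against 26.8% of all genes) and below in 12 (27.9%, against 33.1%), and all shBrca2-CM values lay above in 10 (23.3%, against 26.1%) and below in 17 (39.5%, against 31.3%). The share of members called was thus near that of all genes in both comparisons. When either growth medium library was left out, 9 members were called with shControl-CM.

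**Figure D2:**
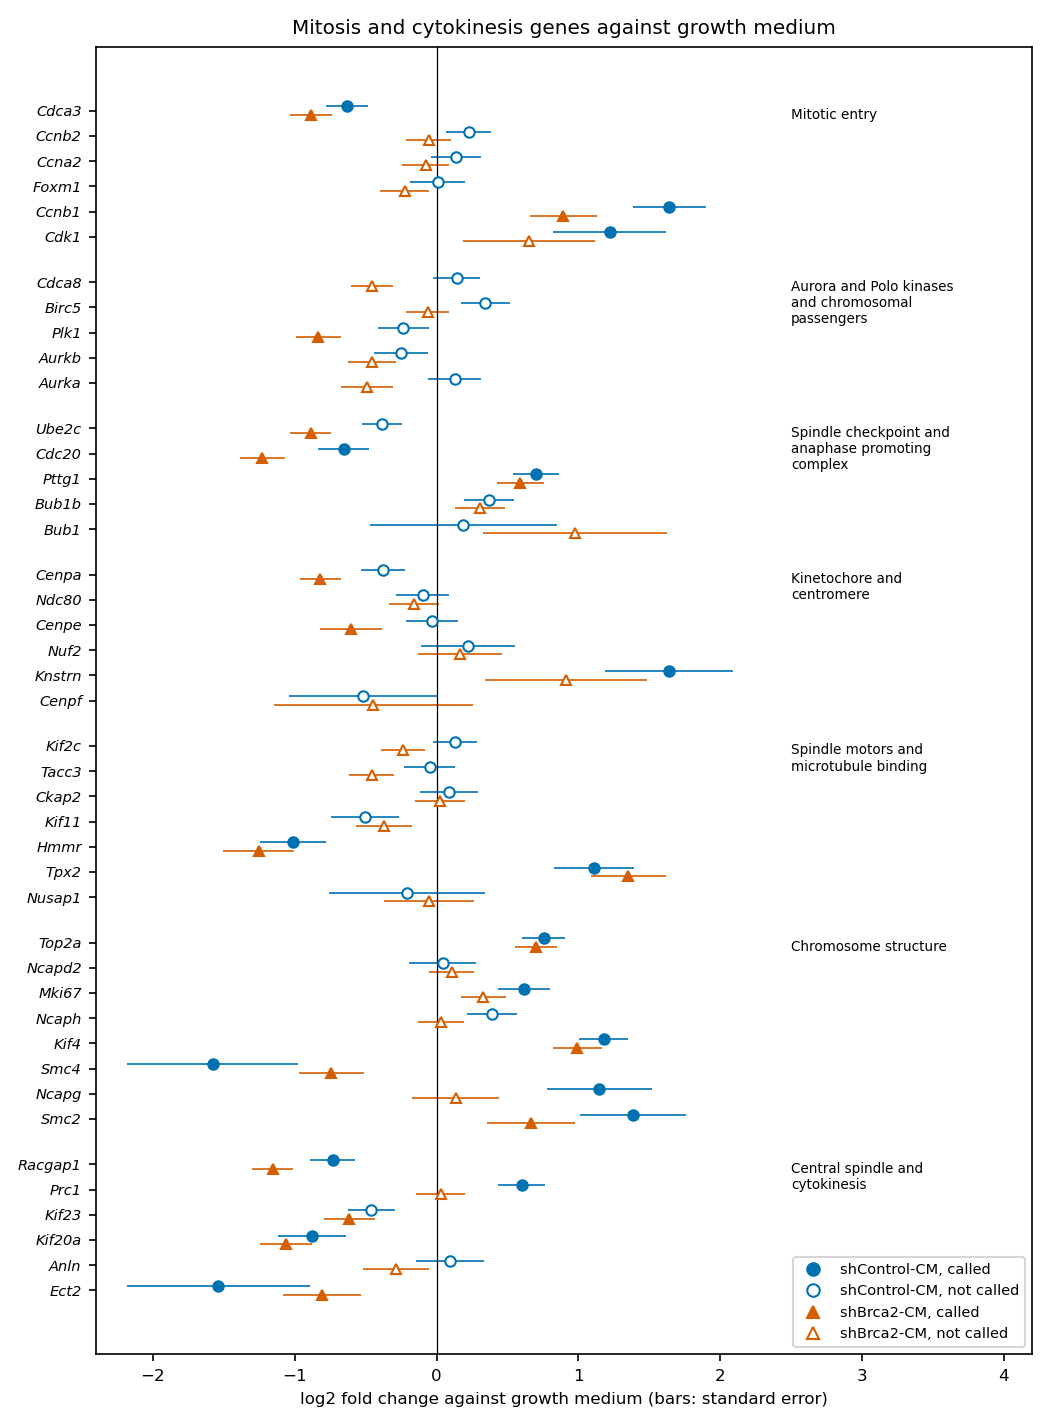
Log2 fold change against growth medium (x axis) of each member (y axis, grouped by role and ordered by mean CPM) with shControl-CM (circles) and shBrca2-CM (triangles). Bars are standard errors and filled symbols are called. Ccnb1, Tpx2, Top2a and Kif4 lie to the right of 0 and Cdc20, Hmmr, Racgap1 and Kif20a to the left with both media. Cenpf and Bub1 rest on at most 5 counts in each conditioned medium library.

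Among 6 mitotic entry genes 2 were called higher and 1 lower with shControl-CM, and 1 higher and 1 lower with shBrca2-CM, where the shares of all genes were 18.2% and 18.9%, and 18.6% and 19.2%. *Ccnb1*, which encodes cyclin B1, the partner that activates Cdk1 at mitotic entry, was at 18.8 and 19.99 CPM in growth medium, 46.8, 57.0 and 78.8 CPM with shControl-CM, and 47.7, 34.8 and 28.4 CPM with shBrca2-CM. Every conditioned medium dome lay above both growth medium domes. *Ccnb1* rose by a log2 fold change of 1.64 ± 0.26 under shControl-CM (SE, edgeR adjusted p = 0.00128) and 0.89 ± 0.24 under shBrca2-CM (SE, adjusted p = 0.00179). *Cdk1* itself had few counts, 26 and 19 in growth medium, 17, 6 and 19 with shControl-CM and 3, 4 and 11 with shBrca2-CM. In CPM these were 4.52 and 4.08, then 10.9, 5.80 and 12.9, then 4.34, 4.98 and 9.76, so that the shBrca2-CM values overlapped those of growth medium. *Cdk1* rose with shControl-CM (log2 fold change 1.22 ± 0.40, SE, adjusted p = 0.0398), a call that was lost when the libraries were thinned to one depth, with DESeq2 and without either growth medium library. The log2 fold change with shBrca2-CM was 0.65 (adjusted p = 0.27).

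The second B cyclin, *Ccnb2*, was at 144 and 141 CPM in growth medium, 178, 174 and 152 CPM with shControl-CM and 130, 168 and 115 CPM with shBrca2-CM. *Ccna2*, the gene of cyclin A2, which acts from S phase into early mitosis, was at 93.7 and 109 CPM, 124, 94.7 and 116 CPM, and 96.9, 117 and 77.2 CPM in the same order. Neither passed the test against growth medium with either medium. *Cdca3*, whose product marks the Cdk1 inhibitor Wee1 for destruction, was at 281 and 274 CPM in growth medium, 179, 185 and 176 CPM with shControl-CM, and 159, 168 and 127 CPM with shBrca2-CM. The 3 groups of *Cdca3* did not overlap, and it fell by 0.63 on the log2 scale with shControl-CM (adjusted p = 0.0089) and by 0.88 with shBrca2-CM (adjusted p = 2.0e-06).

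Of the 5 checkpoint and anaphase promoting complex genes, 1 was called higher and 1 lower with shControl-CM (against 18.2% and 18.9% of all genes), and 1 higher and 2 lower with shBrca2-CM (against 18.6% and 19.2%). *Cdc20*, the activator that lets the anaphase promoting complex bind its substrates, was at 185 and 213 CPM in growth medium, 104, 132 and 144 CPM with shControl-CM, and 101, 74.7 and 79.9 CPM with shBrca2-CM. It fell by 0.66 ± 0.18 on the log2 scale under shControl-CM (SE, edgeR adjusted p = 0.0185, lost without growth medium replicate 2) and by 1.23 ± 0.16 under shBrca2-CM (SE, adjusted p = 4.99e-09). *Ube2c*, the ubiquitin conjugating enzyme of the same complex, was at 441 and 434 CPM, 333, 351 and 327 CPM, and 279, 223 and 210 CPM, respectively. Its 3 groups did not overlap. With shBrca2-CM *Ube2c* fell by 0.89 ± 0.14 (SE, adjusted p = 8.76e-07), while with shControl-CM its log2 fold change of -0.38 (adjusted p = 0.0622) was short of the fold change threshold.

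*Pttg1* encodes securin, which like cyclin B1 is a protein that this complex destroys. Its transcript was at 68.3 and 68.6 CPM in growth medium, 113, 110 and 112 CPM with shControl-CM, and 110, 107 and 94.1 CPM with shBrca2-CM. *Pttg1* thus rose in all 6 conditioned medium domes, by 0.70 on the log2 scale with shControl-CM (adjusted p = 0.00902) and 0.59 with shBrca2-CM (adjusted p = 0.00279). The checkpoint kinase genes were not called: *Bub1b* was at 65.1 to 102 CPM over the 8 libraries, and *Bub1* had 1 to 5 counts in each conditioned medium library and 10 in each growth medium library.

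**Figure D3:**
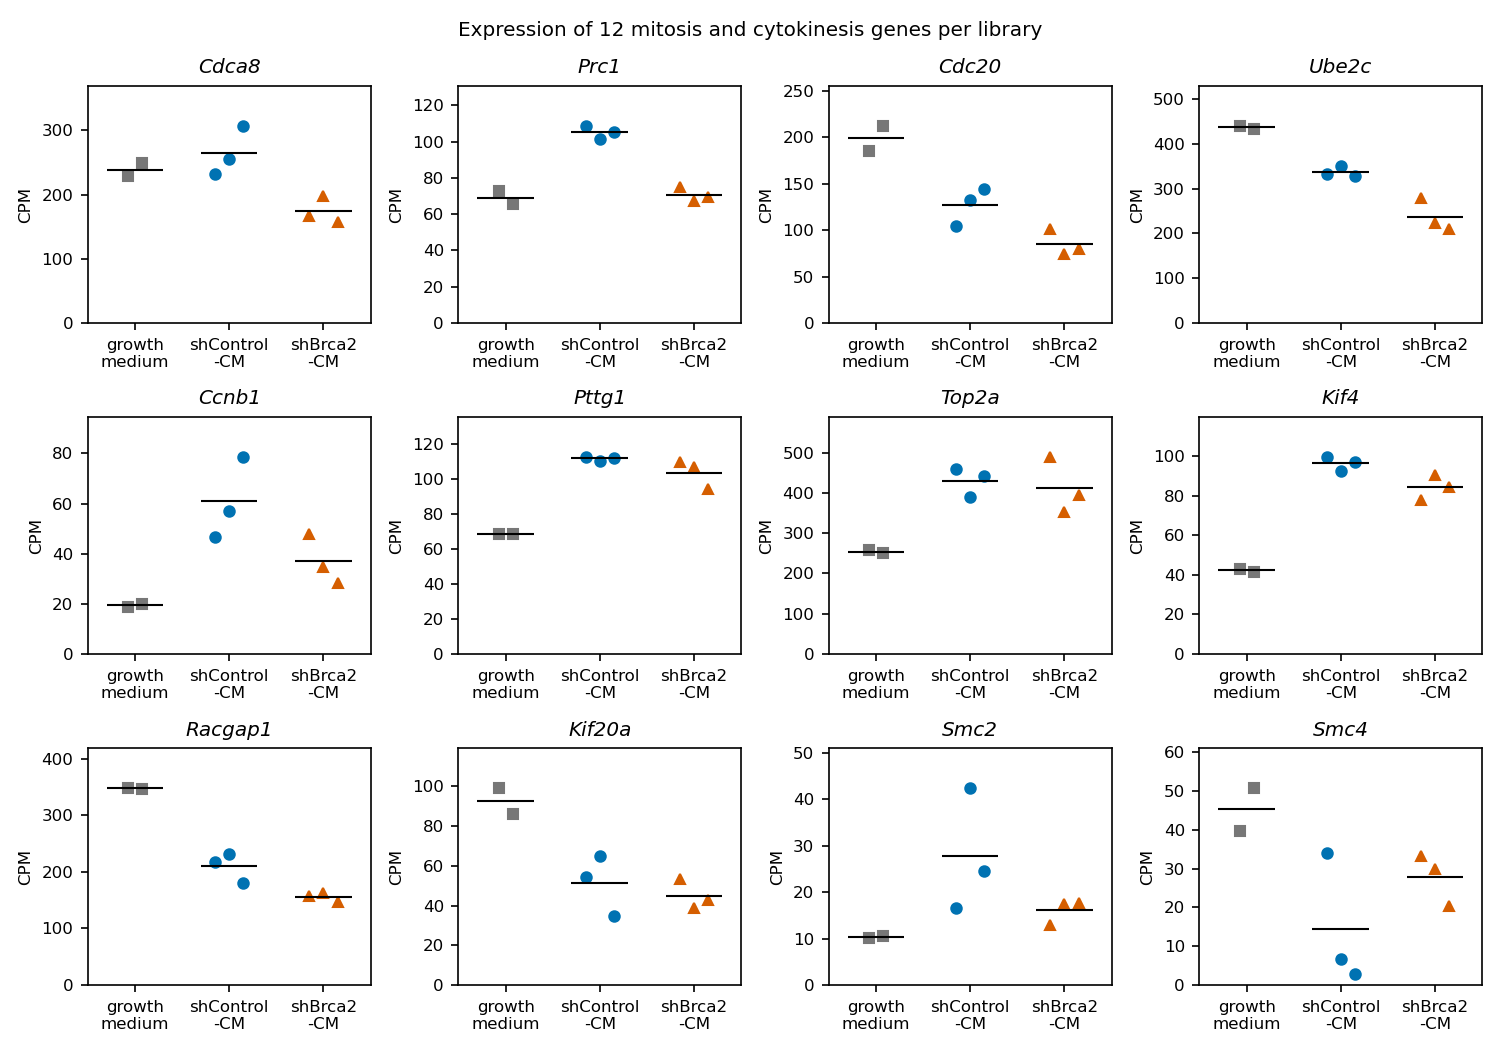
CPM (y axis, from 0) of 12 members by medium (x axis), with 1 point per library and a line at the group mean. Cdca8 and Prc1 are lower in all 3 shBrca2-CM than in all 3 shControl-CM libraries, Cdc20 and Ube2c step down from growth medium, Ccnb1, Pttg1, Top2a and Kif4 step up, and Smc4 spreads from 2.72 to 34.0 CPM among shControl-CM libraries.

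Among chromosome structure genes 5 of 8 were called higher and 1 lower with shControl-CM, and 3 higher and 1 lower with shBrca2-CM, where 18.2% and 18.9% of all genes were called higher and lower with shControl-CM and 18.6% and 19.2% with shBrca2-CM. *Top2a*, the topoisomerase that untangles sister chromatids, was at 258 and 250 CPM in growth medium, 460, 389 and 441 CPM with shControl-CM, and 490, 352 and 395 CPM with shBrca2-CM. The conditioned media overlapped one another and lay wholly above growth medium. *Top2a* rose by 0.76 ± 0.15 (SE, edgeR adjusted p = 0.0047) and 0.70 ± 0.15 (SE, adjusted p = 8.41e-05) on the log2 scale, respectively. *Kif4*, a chromosome-bound kinesin that works with condensin and at the central spindle, was at 43.3 and 41.7 CPM in growth medium, 99.95, 92.8 and 97.1 CPM with shControl-CM and 78.1, 90.8 and 84.3 CPM with shBrca2-CM. It rose 2.26-fold (adjusted p = 8.29e-04) and 1.99-fold (adjusted p = 5.06e-06). *Mki67*, which coats mitotic chromosomes and is the common marker of cycling cells, was at 95.6 and 84.5 CPM, 137, 161 and 119 CPM, and 122, 126 and 95.9 CPM, with no overlap between growth medium and either conditioned medium. It rose by 0.62 with shControl-CM (adjusted p = 0.0279), a call lost with total counts and without shControl-CM replicate 2 or either growth medium library, and its log2 fold change with shBrca2-CM was 0.33 (adjusted p = 0.0986), short of the fold change threshold.

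Condensin is a ring of *Smc2* and *Smc4* closed, in condensin I, by *Ncaph*, *Ncapd2* and *Ncapg*, and its genes did not share a direction. *Smc2* was at 10.1 and 10.5 CPM in growth medium, 16.7, 42.5 and 24.5 CPM with shControl-CM, and 13.0, 17.4 and 17.8 CPM with shBrca2-CM. *Smc4* was at 39.8 and 51.0 CPM, 34.0, 6.76 and 2.72 CPM, and 33.3, 29.9 and 20.4 CPM. *Smc2* was called higher with both media (log2 fold change 1.39, adjusted p = 0.0186, and 0.67, adjusted p = 0.0821) and *Smc4* lower with both (log2 fold change -1.58, adjusted p = 0.0698, and -0.74, adjusted p = 0.00654). The calls of both genes were lost in several other fits. Without either growth medium library *Smc2* was lost with both media and *Smc4* with shControl-CM, without shControl-CM replicate 2 *Smc4* was lost with shControl-CM, and without shBrca2-CM replicate 3 both were lost with shBrca2-CM, as *Smc2* also was without replicate 2. In thinned libraries *Smc2* was lost with both media and *Smc4* with shBrca2-CM. With DESeq2 *Smc2* was lost with shBrca2-CM and *Smc4* with shControl-CM, and with the joint fit of the 3 groups both were lost with shBrca2-CM.

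*Ncapg* was at 14.6 and 15.1 CPM in growth medium, 16.7, 43.5 and 40.8 CPM with shControl-CM, and 27.5, 12.4 and 11.5 CPM with shBrca2-CM. It was called higher with shControl-CM (log2 fold change 1.15, edgeR adjusted p = 0.0381), a call lost without shControl-CM replicate 2 or either growth medium library. *Ncapd2* was at 129 and 100 CPM, 153, 116 and 86.9 CPM, and 146, 112 and 115 CPM. Neither it nor *Ncaph*, at 89.2 to 129 CPM over the 8 libraries, was called. The shControl-CM domes differed among themselves in this group of genes: the dome with 34.0 CPM of *Smc4* had 16.7 CPM of each of *Smc2* and *Ncapg*, and in the other 2 *Smc4* was at or below 6.76 CPM and *Ncapg* at or above 40.8 CPM. This spread was not particular to these genes. Over all genes the chi-square per degree of freedom between pairs of shControl-CM domes was 2.99, 8.35 and 4.21. It was 1.65 to 1.94 between shBrca2-CM domes and 6.64 between growth medium domes, in libraries of unequal depth.

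Of the 6 central spindle and cytokinesis genes, 3 were called lower and 1 higher with shControl-CM (against 18.9% and 18.2% of all genes), and 4 lower and 0 higher with shBrca2-CM (against 19.2% and 18.6%). *Racgap1*, which with *Kif23* forms the centralspindlin complex that places the cleavage furrow, was at 349 and 346 CPM in growth medium, 218, 232 and 181 CPM with shControl-CM, and 158, 163 and 147 CPM with shBrca2-CM. The 3 groups did not overlap, and *Racgap1* fell by 0.73 ± 0.16 on the log2 scale under shControl-CM (SE, edgeR adjusted p = 0.00717) and by 1.16 ± 0.15 under shBrca2-CM (SE, adjusted p = 1.52e-09). *Kif23* was at 99.8 and 92.0 CPM, 75.0, 67.6 and 67.2 CPM, and 82.5, 63.5 and 47.1 CPM. It fell by 0.61 with shBrca2-CM (adjusted p = 0.00457), a call lost without shBrca2-CM replicate 3 and in thinned libraries, and with shControl-CM the log2 fold change was -0.46 (adjusted p = 0.0587), short of the threshold.

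*Kif20a*, the kinesin that carries Aurora B to the central spindle, was at 99.4 and 86.2 CPM in growth medium, 54.5, 64.7 and 34.6 CPM with shControl-CM, and 53.5, 38.6 and 42.6 CPM with shBrca2-CM. It fell by 0.88 (adjusted p = 0.0193, lost without growth medium replicate 1) and by 1.06 (adjusted p = 3.65e-06). *Ect2*, the exchange factor that activates RhoA at the furrow, had 161 and 114 counts in growth medium, 27, 10 and 0 with shControl-CM and 12, 15 and 12 with shBrca2-CM. In CPM these were 27.98 and 24.5, then 17.3, 9.66 and 0, then 17.4, 18.7 and 10.7, and the count of 0 allows up to 2.04 CPM in that shControl-CM library. *Ect2* was called lower with both media (log2 fold change -1.54, adjusted p = 0.0921, and -0.81, adjusted p = 0.0151), and the call was lost without shControl-CM replicate 2 or either growth medium library in the first and without shBrca2-CM replicate 3 or with the joint fit in the second. Both calls of *Ect2* were lost with DESeq2 and in thinned libraries, and the first also with a minimum of 50 counts. *Anln*, at 16.2 to 43.5 CPM over the 8 libraries, was not called. Against this direction went *Prc1*, the microtubule bundler of the central spindle, which rose with shControl-CM (log2 fold change 0.60, adjusted p = 0.0199, lost without growth medium replicate 2, with total counts and in thinned libraries).

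At the kinetochore, *Cenpa*, the histone H3 variant that marks centromeres, was at 337 and 351 CPM in growth medium, 233, 282 and 283 CPM with shControl-CM, and 182, 223 and 179 CPM with shBrca2-CM. With shBrca2-CM *Cenpa* fell by 0.82 ± 0.14 on the log2 scale (SE, edgeR adjusted p = 4.65e-06). With shControl-CM its log2 fold change was -0.38 (adjusted p = 0.0841), short of the fold change threshold. *Cenpe*, a kinetochore motor, was at 51.4 and 51.6 CPM, 46.8, 53.2 and 52.3 CPM, and 46.3, 38.6 and 21.3 CPM. It fell by 0.61 with shBrca2-CM (adjusted p = 0.0213), a call lost without shBrca2-CM replicate 3, with DESeq2 and in thinned libraries. *Ndc80* was at 78.4 and 71.2 CPM, 57.7, 76.3 and 77.4 CPM, and 75.2, 68.4 and 59.5 CPM, with overlap throughout. *Ndc80* and its partner *Nuf2*, at 10.9 to 23.1 CPM over the 8 libraries, form the outer kinetochore's grip on microtubules and were not called. *Knstrn*, a spindle and kinetochore adaptor, had 10 and 17 counts in growth medium, 14, 8 and 12 with shControl-CM and 3, 5 and 5 with shBrca2-CM, or 1.74 and 3.65, then 8.97, 7.73 and 8.15, then 4.34, 6.22 and 4.44 CPM. Both conditioned media lay above growth medium, and *Knstrn* was called higher with shControl-CM (log2 fold change 1.64 ± 0.45, SE, adjusted p = 0.02), a call lost without growth medium replicate 1 and in thinned libraries. *Cenpf* had 0 to 4 counts in each conditioned medium library, at or under the floor with shBrca2-CM, and 19 and 14 in growth medium, and its fitted fold changes, plotted with those of the other members, rest on these counts.

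Of the spindle genes, *Tpx2* and *Hmmr* took opposite directions although both encode microtubule binding proteins of the spindle that act with Aurora A. *Tpx2* was at 13.2 and 10.3 CPM in growth medium, 28.2, 27.1 and 21.7 CPM with shControl-CM, and 36.2, 26.1 and 29.3 CPM with shBrca2-CM. It rose by 1.11 (adjusted p = 0.0144, lost without growth medium replicate 2 and in thinned libraries) and 1.35 (adjusted p = 3.0e-05) on the log2 scale. *Hmmr* was at 45.9 and 38.5 CPM, 21.8, 18.4 and 22.4 CPM, and 17.4, 24.9 and 12.4 CPM. It fell by 1.01 (adjusted p = 0.00924, lost without growth medium replicate 1 and in thinned libraries) and by 1.25 (adjusted p = 4.13e-05). *Kif2c*, which trims microtubules at centromeres, was at 124 and 128 CPM in growth medium, 143.5, 127.5 and 145 CPM with shControl-CM, and 111, 107 and 103 CPM with shBrca2-CM, the last below both other groups. *Tacc3*, which links spindle microtubules, was at 129 and 139 CPM, 105, 145 and 141 CPM, and 99.8, 85.9 and 105 CPM. *Ckap2*, a microtubule stabilizer, was at 74.4 and 74.2 CPM, 93.5, 58.9 and 83.5 CPM, and 94.0, 63.5 and 71.0 CPM. These 3 genes were not called, nor were *Kif11* (36.0 to 77.5 CPM over the 8 libraries) and *Nusap1* (2.04 to 26.0 CPM). *Tacc3* lay lower in all shBrca2-CM domes than in both growth medium domes. Its log2 fold change of -0.46 (edgeR adjusted p = 0.0165) was short of the fold change threshold.

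*Plk1*, the Polo kinase that acts from mitotic entry to cytokinesis, was the kinase gene called against growth medium among the Aurora and Polo kinases and passengers. It was at 165 and 196 CPM in growth medium, 136, 144 and 183 CPM with shControl-CM, and 114, 89.6 and 100 CPM with shBrca2-CM. With shBrca2-CM *Plk1* fell by 0.83 ± 0.16 on the log2 scale (SE, edgeR adjusted p = 1.64e-05), and with shControl-CM its log2 fold change was -0.23 (adjusted p = 0.34) with overlapping values. *Aurka*, *Aurkb* and *Cdca8* were lower in all 3 shBrca2-CM domes than in both growth medium domes, with adjusted p-values of 0.0274, 0.0267 and 0.00985 but log2 fold changes of -0.49, -0.45 and -0.46, short of the threshold of 0.5. *Aurkb* was at 62.1 to 106 CPM over the 8 libraries. *Birc5*, the gene of survivin, was at 136 and 141 CPM in growth medium, 147, 189 and 196 CPM with shControl-CM and 140, 124 and 133 CPM with shBrca2-CM, and was not called.

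The question of the study was what silencing *Brca2* in the organoids changes for the PSCs, and shBrca2-CM was therefore compared with shControl-CM directly. Most members lay lower with shBrca2-CM by small steps: 35 of 43 had a negative log2 fold change (81.4%, against 47.0% of the 11035 genes tested), with a median of -0.23 over the members, where the median of all genes was 0.03. In 17 members all 3 shBrca2-CM values lay below all 3 shControl-CM values (39.5%, against 10.6% of all genes), and in 0 members all lay above (against 9.14%). Of the 43, 2 were called, both lower (4.65%, against 3.13% of all genes called in either direction and 1.55% called lower), 0 were called higher (against 1.58%), and 14 had an unadjusted edgeR p-value under 0.05 (32.6%, against 13.4%). With total counts in place of TMM the median was -0.12 where that of all genes was 0.14, and 8 members lay without overlap below shControl-CM. The share of all genes without overlap was not computed on that scale, so this count has no background. With total counts 0 members were called, where 370 of the 11035 genes were. The calls also depended on single domes, with 12 members called lower and *Smc4* higher without shControl-CM replicate 1, where the calls over all genes went from 345 to 976, and 0 members called without shBrca2-CM replicate 2, without shBrca2-CM replicate 3 or without shControl-CM replicate 2.

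**Figure D4:**
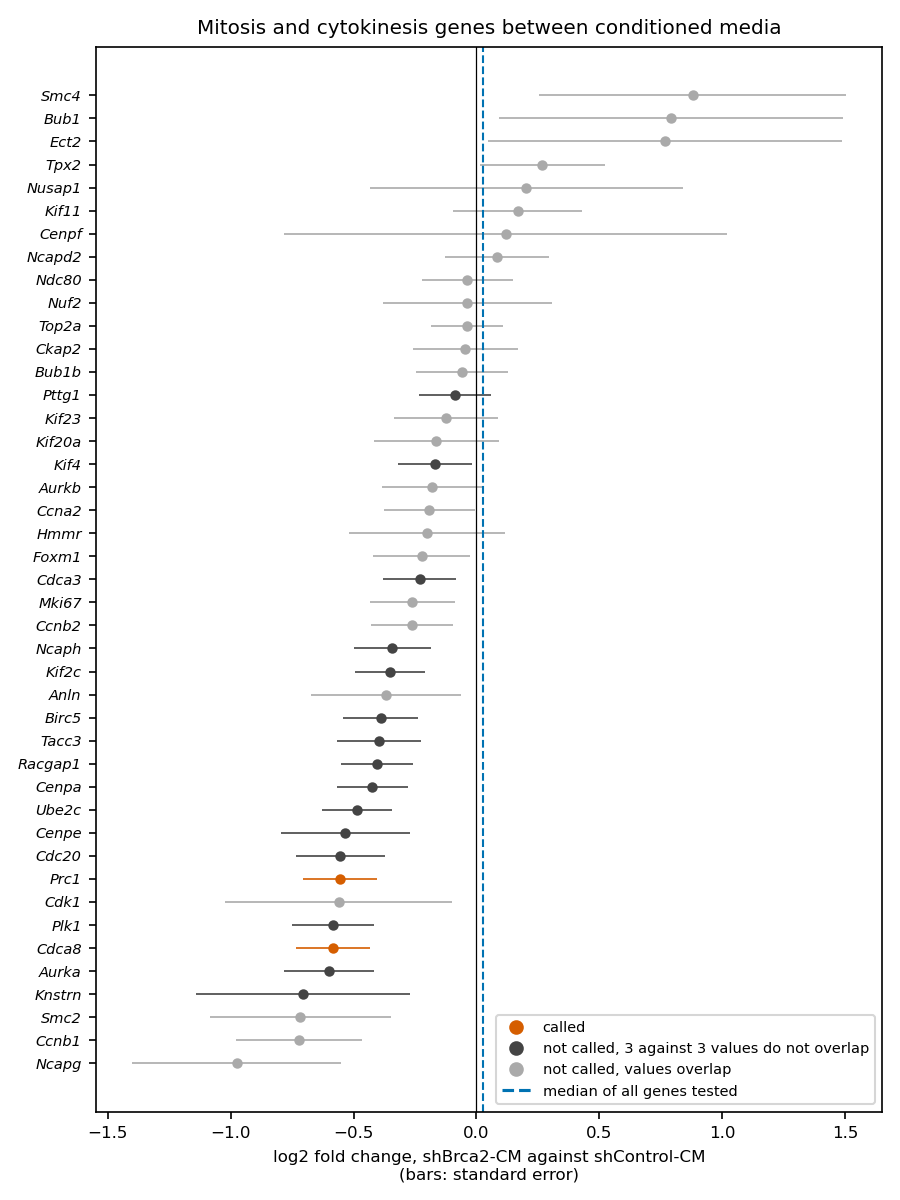
Log2 fold change between the conditioned media, shBrca2-CM over shControl-CM (x axis), of the 43 members (y axis, in order of the value), with bars for standard errors and a dashed line at the median of all genes tested, 0.03. Cdca8 and Prc1 are called, 15 more members have 3 shBrca2-CM values below all shControl-CM values, and the 8 members to the right of 0 have overlapping values.

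*Cdca8*, the gene of borealin, a subunit of the chromosomal passenger complex that holds Aurora B at centromeres and later at the central spindle, was at 166, 198 and 158 CPM with shBrca2-CM and 233, 255 and 308 CPM with shControl-CM (174 ± 21.0 and 265 ± 38.5 CPM, SD, n = 3 each). Growth medium, with 229 and 249 CPM, lay near the shControl-CM values. *Cdca8* fell by 0.58 ± 0.15 on the log2 scale (SE, edgeR adjusted p = 0.0794). *Prc1* was at 75.2, 67.2 and 69.2 CPM with shBrca2-CM and 109, 102 and 105 CPM with shControl-CM (70.6 ± 4.17 and 105 ± 3.73 CPM, SD, n = 3 each), with 72.6 and 65.4 CPM in growth medium. It fell by 0.56 ± 0.15 (SE, adjusted p = 0.0995), and the shBrca2-CM values fell around those of growth medium (log2 fold change 0.03, adjusted p = 0.92). When each of the 6 libraries was left out in turn, the call of *Cdca8* was kept without shControl-CM replicate 1 and lost in the other 5 fits, and that of *Prc1* was kept without shControl-CM replicate 1 or 3 and lost in the other 4. With DESeq2's Wald test *Cdca8* kept its call (adjusted p = 0.0482) and *Prc1* lost it (adjusted p = 0.257), and *Prc1* also lost it in thinned libraries. Both genes lost their calls with total counts, with the replicate block and at an adjusted p-value under 0.05.

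The Aurora and Polo kinases and chromosomal passengers had the lowest median of the 7 roles, at -0.58 on the log2 scale. Of these 5 genes, *Cdca8*, *Plk1*, *Aurka* and *Birc5* had no overlap between the conditioned media, where 10.6% of all genes lay without overlap below shControl-CM. *Plk1* was at 101 ± 12.4 CPM with shBrca2-CM and 154 ± 25.0 CPM with shControl-CM (SD, n = 3 each; log2 fold change -0.58, adjusted p = 0.11). *Aurka* was at 57.9, 49.8 and 47.9 CPM and at 67.3, 84.1 and 87.6 CPM (log2 fold change -0.60, adjusted p = 0.15). *Birc5* had a log2 fold change of -0.39 (adjusted p = 0.28) and *Aurkb*, whose values overlapped, one of -0.18 (adjusted p = 0.77).

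Among the remaining members without overlap, *Ube2c* and *Cdc20* had log2 fold changes of -0.49 (adjusted p = 0.125) and -0.55 (adjusted p = 0.18), *Cenpa* and *Racgap1* -0.42 (adjusted p = 0.2) and -0.40 (adjusted p = 0.22), and *Kif2c* and *Tacc3* -0.35 (adjusted p = 0.29) and -0.40 (adjusted p = 0.34). *Cenpe*, *Knstrn*, *Ncaph* and *Cdca3* had -0.53 (adjusted p = 0.42), -0.71 (adjusted p = 0.54), -0.34 (adjusted p = 0.37) and -0.23 (adjusted p = 0.56). None of these 10 passed the test. *Ube2c* was called with DESeq2's Wald test (adjusted p = 0.0888), in the joint fit, and without shBrca2-CM replicate 1 or shControl-CM replicate 1 or 3. *Cdc20*, *Cenpa* and *Tacc3* were called without shControl-CM replicate 1, and *Racgap1* without shControl-CM replicate 3. *Pttg1*, with -0.09 ± 0.15 (SE, adjusted p = 0.86), and *Kif4*, with -0.17 ± 0.15 (SE, adjusted p = 0.7), complete the 17 members without overlap. These are 2 of the 6 members called higher than growth medium with both media. Of the other 4, whose values overlapped between the conditioned media, *Top2a* had a log2 fold change of -0.04 ± 0.15 (SE, adjusted p = 0.94), *Tpx2* 0.27 ± 0.25 (SE, adjusted p = 0.72), *Ccnb1* -0.72 ± 0.26 (SE, adjusted p = 0.22) and *Smc2* -0.72 (adjusted p = 0.44). For *Ncapg*, with -0.98 ± 0.43 (SE, adjusted p = 0.34), a difference was not detectable at this depth and spread.

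A second list held other genes of mitosis, and of its 63 genes 60 were in the table. Against growth medium 13 of 60 were called higher and 8 lower with shControl-CM, and 4 higher and 19 lower with shBrca2-CM. For these and the following lists the shares of all genes called higher and lower were 18.2% and 18.9% with shControl-CM, and 18.6% and 19.2% with shBrca2-CM. Between the conditioned media 39 of the 58 tested had a negative log2 fold change, with a median of -0.09, 15 lay without overlap below shControl-CM and 3 above, where 47.0% of all genes were negative and 10.6% and 9.14% lay without overlap below and above. Of the 58, where 1.55% of all genes were called lower and 1.58% higher, 3 were called lower with shBrca2-CM: *Kif22*, a chromosome arm kinesin, at 91.1, 93.3 and 107 CPM against 147, 182 and 181 CPM (log2 fold change -0.77, edgeR adjusted p = 0.0196), *Ckap2l*, a spindle protein (log2 fold change -0.71, adjusted p = 0.0952), and *Tubb4b*, a beta tubulin (log2 fold change -0.51, adjusted p = 0.0561). The 1 gene called higher was *Psrc1*, a microtubule binding protein, at 33.3, 28.6 and 22.2 CPM with shBrca2-CM, 7.69, 8.70 and 9.51 CPM with shControl-CM and 71.95 and 72.2 CPM in the control (log2 fold change 1.70, adjusted p = 0.0139). Of 24 subunits of the anaphase promoting complex and of cohesin, the ring that holds sister chromatids together, 20 were in the table. Of these 6 were called higher and 3 lower with each conditioned medium against growth medium and 0 between the conditioned media by edgeR (1 with an unadjusted p-value under 0.05). Over all genes 3.13% were called between the conditioned media and 13.4% had an unadjusted p-value under 0.05.

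The transcription factors that time the mitotic genes were listed as 23 MuvB, E2F, Rb and NF-Y genes. With shControl-CM 5 were called higher and 3 lower than in growth medium, and with shBrca2-CM 4 and 5. *Mybl2*, the gene of B-Myb, *E2f1*, *E2f2* and *E2f7* were called higher with each medium, and *Tfdp1*, *Rb1* and *Nfya* lower. Between the conditioned media 0 of the 23 were called by edgeR (1 with an unadjusted p-value under 0.05), while 16 had a negative log2 fold change and their median was -0.21, where that of the members was -0.23. For this list and the S phase list, the values over all genes were 3.13% called and 13.4% with an unadjusted p-value under 0.05. Of all genes 47.0% had a negative log2 fold change, and their median was 0.03. *Foxm1* itself, a member, was at 61.0 to 89.7 CPM with shBrca2-CM, 76.7 to 108 CPM with shControl-CM and, in growth medium, 93.7 and 82.8 CPM, and was not called in any comparison. Of 33 S phase genes, 10 were called higher and 4 lower with shControl-CM, 7 higher and 4 lower with shBrca2-CM, and 0 between the conditioned media by edgeR (3 with an unadjusted p-value under 0.05). Of the 33, 23 had a negative log2 fold change between the conditioned media, with a median of -0.16, and their summed expression was 5075 to 5296 CPM with shBrca2-CM, 5676 to 5934 CPM with shControl-CM and, in growth medium, 4564 and 4809 CPM. Of 20 Cdk inhibitors and p53 targets, 1 was called higher and 9 lower with shControl-CM, and 1 higher and 10 lower with shBrca2-CM. Between the conditioned media 1 of the 20 was called, *Cdkn2d*, an inhibitor of Cdk4 and Cdk6, lower with shBrca2-CM (log2 fold change -0.69, adjusted p = 0.0794). Of all genes, 1.55% were called lower and 1.58% higher in that comparison.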

How the data were processed

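RNA of PSCs was measured in 8 libraries, 3 with shBrca2-CM, 3 with shControl-CM and 2 with growth medium, grouped by the recorded treatment. The deposited values are raw read counts for each gene from MARS-seq 3′ end libraries sequenced on a NextSeq instrument; the submitters' processing notes name bcl2fastq, cutadapt, STAR 2.4.2a, HTSeq, DESeq2 and mm10, and the treatment of molecular identifiers and the rule that selected the genes are not given in the sources used here. In the table, 1 column matched no sample and was not used. Domes are described as biologically independent, but all are of 1 line, so p-values measure the spread between domes.

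Each pair of groups was fitted alone in R 4.3.3 with edgeR 4.0.16 (TMM, a minimum of 10 counts summed over the libraries of a fit, quasi-likelihood test). P-values were adjusted by Benjamini-Hochberg over every gene tested, and members were read from these fits. Thresholds were those the study gives for shBrca2 against shControl. The edgeR and DESeq2 calls were tested on simulated data with 200 genes changed by 2 on the log2 scale. That is larger than any member's difference between the conditioned media, and smaller changes were not simulated. Between the conditioned media edgeR recovered 197 with 21 false calls and DESeq2 192 with 16. For shControl-CM against growth medium these were 193 with 26 and 183 with 29, and for shBrca2-CM 196 with 11 and 184 with 2. The members and lists were chosen with earlier results of these data known. Values in every library are given for the 3 members of highest mean CPM in each of 7 roles, and for those called between the conditioned media, called with 1 conditioned medium, or called against the direction of most members, 32 in all; the other 11 are given by ranges of CPM or counts, and some of these also by values where a result turned on them. Alternatives were DESeq2 1.42.0 (Wald test), its size factors or total counts, a joint fit of the 3 groups, a replicate block, other filters and other thresholds, thinned libraries and each library left out. The overlap of values and summed CPM under other scalings were added after the data were examined.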

Additional observations from a re-analysis of the deposited data

How the results depend on the processing

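Between the conditioned media the 2 members called, both lower, became 0 with total counts, with the replicate block and at an adjusted p-value under 0.05, 1 in thinned libraries and 4 with all 3 groups in one fit. Over the fits that left out 1 library, the members called ranged from 0 to 13, those called lower from 0 to 12 and those called higher from 0 to 1, and all genes called from 128 (without shBrca2-CM replicate 2) to 976 (without shControl-CM replicate 1), where 345 were called with all libraries and 206 at an adjusted p-value under 0.05. The median log2 fold change of the members stayed negative in these fits, at -0.33 to -0.16. With shControl-CM against growth medium, the members called ranged from 9 to 21, those higher from 5 to 12 and those lower from 3 to 9, all genes called from 1901 to 5157 (2852 in thinned libraries, 4488 with all libraries at full depth), where the fits without a growth medium library assume that the lone dome varies like the other group. The median there went from 0.10 to -0.02 with total counts. With shBrca2-CM against growth medium the members called ranged from 14 to 20, those higher from 5 to 6 and those lower from 9 to 15. No called member changed sign under any alternative, while values that were not called changed sign in 32, 22 and 22 cases in the 3 comparisons. Members without overlap below shControl-CM numbered 17 with TMM, 14 with DESeq2's size factors, 8 with total counts and 9 in thinned libraries. The share of all genes without overlap was computed with TMM alone (10.6%), so the counts of the other settings have no background. The deviations of same-numbered domes of the conditioned media had correlations of -0.02, -0.01 and 0.09, and not every dome correlated best with its own number. With 3 domes per group this check cannot tell whether same-numbered domes were handled together. The block left 311 of all genes called and 0 members between the conditioned media, and changed the count of members called by less than 1.5 times in the other 2 comparisons, where *Cenpe*, *Ect2*, *Kif23*, *Smc2* and *Smc4* were no longer called with shBrca2-CM. Depth limits genes such as *Bub1* and *Cenpf*, with 5 or fewer counts in each conditioned medium library. The causes of these shifts were not tested.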
